A study of Rattus norvegicus with 10 samples.

Results

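Interferon-stimulated genes were described here in the liver of irradiated rats. The set was 9 genes: the effectors Isg15, Mx1, Mx2, Oas1a, Ifit2 and Ifit3, and the transcription factors Irf1, Irf7 and Stat2. They were found by matching the accession of each array probe to a gene symbol. All 9 genes were measured, by 10 probes of the 40945 on the array that had a value in every rat, which in all named 13426 genes. Ifit2 had 2 probes and each other gene had 1. All 10 probes were well above background on all 10 arrays.

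Male Wistar rats in 3 groups were compared, with liver RNA of 1 rat on each array. Control rats (n = 3) received no radiation (0 Gy) and no compound. TBI rats (n = 3) received total-body irradiation with 6.5 Gy, the dose in the array labels, from a 60Co source at 2 Gy/min. The study's methods text gives a different dose. MASM + TBI rats (n = 4) were irradiated in the same way after MASM, a derivative of the plant alkaloid matrine, had been given into the stomach at 30 mg/kg a day for 3 days. The livers were taken at 24 h. The comparisons asked how total-body irradiation changed gene expression in the liver, and how far MASM given beforehand altered that change. The 10 arrays included no rats given MASM without radiation, so the compound was seen only together with irradiation.

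Interferons are secreted proteins, and cells release those of type I on sensing foreign or misplaced nucleic acid. Type I interferons bind a receptor whose kinases activate a complex that holds STAT2 and IRF9 and binds the interferon-stimulated response element (ISRE) in front of its target genes. Interferon gamma acts mainly through another element (GAS) and induces IRF1 among others. The target genes block viral replication, and some of them, such as IRF7, raise interferon production in turn. In the liver, hepatocytes, Kupffer cells and endothelial cells can all make this response, and a low level of it is present without infection.

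The 2 elements were looked for in the stretches around the starts of the genes, because they are the sites at which the pathway acts. RefSeq promoter windows on the assembly GRCr8, each 300 bases long, were at hand for 6 of the 9 genes: Oas1a, Ifit3, Irf7, Irf1, Mx1 and Stat2. Each window ran from 250 bases before the annotated start to 50 bases after it. The letters searched on both strands were GAAANNGAA for the core of the ISRE and TTCNNNGAA for GAS. Of the 6 windows, 3 held the core of the ISRE (Oas1a, Ifit3 and Irf7) and 2 held GAS (Irf1 and Oas1a). Among all 27457 promoter windows of the same length, 2608 (9.50%) held the core of the ISRE and 2382 (8.68%) held GAS. The windows of Mx1 and Stat2 had no match to these letters. The 4 sequences below were chosen because they carry the matches. Each is the 150 bases before the annotated start of the gene, printed 5′ to 3′ on the strand of the gene, with the matched letters in capitals.
Oas1a: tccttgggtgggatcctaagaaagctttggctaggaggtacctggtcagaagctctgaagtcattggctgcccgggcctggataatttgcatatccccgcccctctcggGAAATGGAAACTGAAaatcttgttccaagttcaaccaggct
Ifit3: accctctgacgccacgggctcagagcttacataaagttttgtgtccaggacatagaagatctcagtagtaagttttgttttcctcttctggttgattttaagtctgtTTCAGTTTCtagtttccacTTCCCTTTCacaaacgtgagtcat
Irf7: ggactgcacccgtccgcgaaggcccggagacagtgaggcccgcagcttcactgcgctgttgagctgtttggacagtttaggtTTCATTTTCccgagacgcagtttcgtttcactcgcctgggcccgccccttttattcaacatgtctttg
Irf1: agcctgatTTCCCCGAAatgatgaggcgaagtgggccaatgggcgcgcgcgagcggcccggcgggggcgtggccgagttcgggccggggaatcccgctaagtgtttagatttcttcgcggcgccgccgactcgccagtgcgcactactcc

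The Oas1a stretch lay at chr12:41330316-41330465 on the plus strand. Its capitals mark 2 overlapping ISRE cores on the strand of the gene, and a GAS match further upstream is not in the printed stretch. The Ifit3 stretch lay at chr1:241527176-241527325 on the plus strand and held 2 ISRE cores on the opposite strand to the gene. In Irf7, at chr1:205800024-205800173 on the minus strand, there was 1 ISRE core, also on the opposite strand to the gene. The capitals in Irf1, at chr10:38417785-38417934 on the plus strand, mark a GAS match.

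The labels of the irradiated groups were first set against direct targets of p53, the transcription factor that DNA damage activates. This list of 10 genes was added after the data had been read, and 8 of them were measured. All 8 were higher in TBI rats and all 8 in MASM + TBI rats than in control rats (limma, adjusted p under 0.05). By that rule 998 of 40945 probes were higher in TBI rats and 516 in MASM + TBI rats. Cdkn1a, an inhibitor of the cell cycle, ran from 8.01 to 8.84 in control rats, from 13.47 to 14.06 in TBI rats and from 12.80 to 13.58 in MASM + TBI rats on the log2 scale. Hepatocyte markers were well above background on all arrays for 8 of 8 genes. Spots well above background made up 57.2% to 59.9% of each control array, 64.1% to 70.1% of each TBI array and 56.2% to 60.2% of each MASM + TBI array. The arrays lay on 3 slides, with all control arrays and that of MASM + TBI rat 3 on slide 1, the TBI arrays on slide 2, and MASM + TBI rats 1, 2 and 4 on slide 3. TBI and slide therefore cannot be told apart.

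Both irradiated groups had less signal than the control group for nearly all of the 9 genes. At an adjusted p under 0.05, 7 of 9 genes fell in TBI rats (Isg15, Mx1, Mx2, Oas1a, Ifit3, Irf7 and Stat2). Of all probes, 3.19% fell by this rule. In MASM + TBI rats 8 of 9 fell, the same 7 and Ifit2, against 1.73% of all probes. The called differences ran from 1.92-fold (Stat2) to 11.3-fold (Mx2) in TBI rats. The median difference over the 9 genes was -2.19 in TBI rats and -2.32 in MASM + TBI rats on the log2 scale, while the median over all probes was -0.029 and 0.0024. None of the 9 genes rose in either comparison.

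At the threshold that the study used, an unadjusted p under 0.05 with at least a 1.5-fold change, 8 of 9 genes were lower in TBI rats, all but Irf1, and 6.09% of all probes were lower by that rule. The count in MASM + TBI rats was 7 of 9, all but Irf1 and Stat2, with 4.55% of all probes. For 8 of 9 genes every TBI rat lay below every control rat, which held for 19.0% of all probes. Every MASM + TBI rat lay below every control rat for 9 of 9 genes, against 8.90% of all probes. The RNA was from whole liver, so fewer cells of a type and less RNA per cell cannot be told apart.

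**Figure D1:**
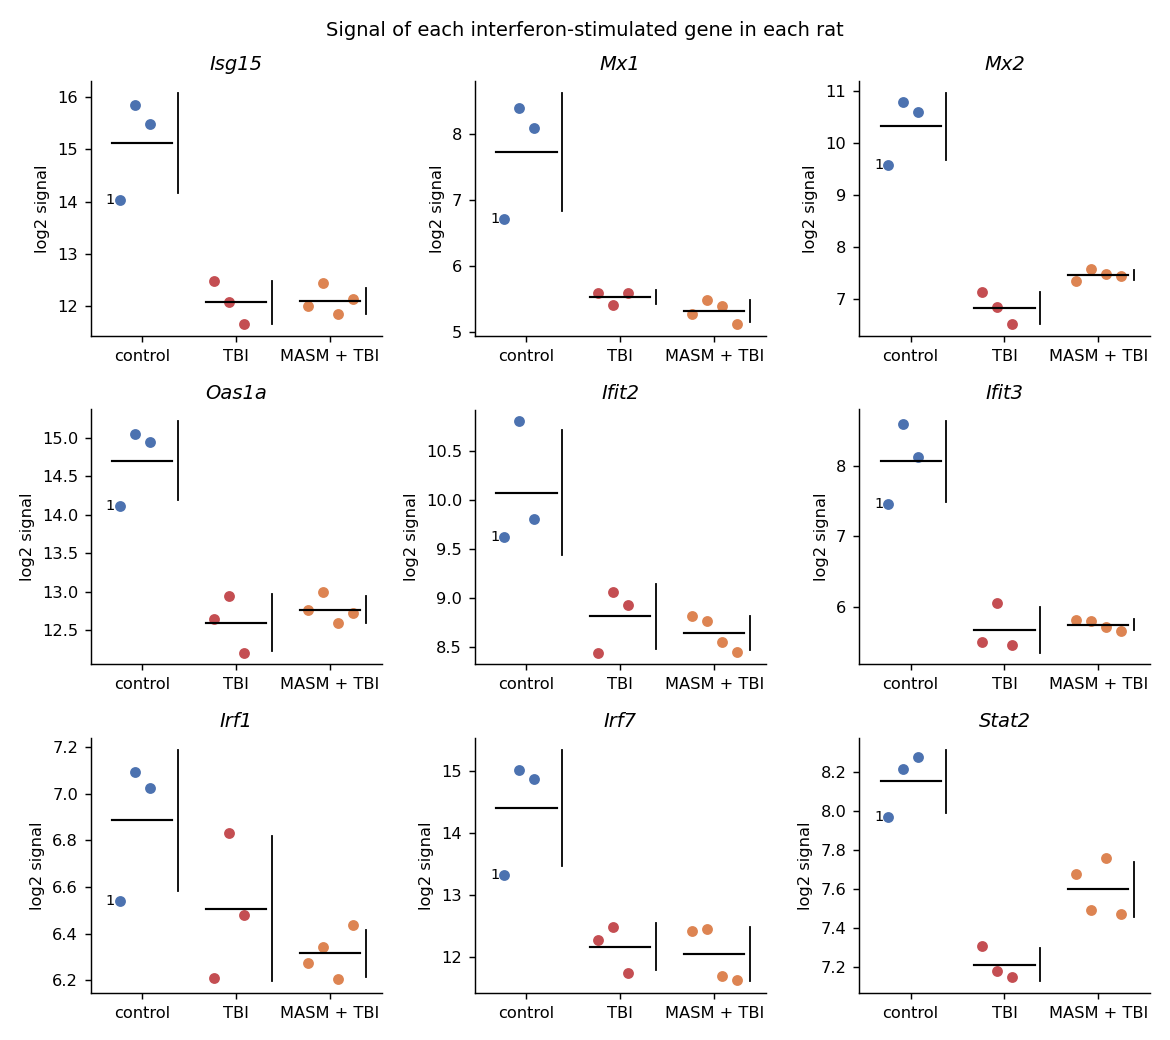
Signal of each of the 9 genes in each rat, on a log2 scale with its own range for each gene; points are rats in order of their number, horizontal lines are group means and vertical lines are 1 SD on either side (3 control, 3 TBI and 4 MASM + TBI rats). Control rat 1, marked 1, was the lowest control rat for all 9 genes, and for 8 of 9 genes the TBI rats lie below all control rats.

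Isg15 encodes a small ubiquitin-like protein that interferon-treated cells attach to other proteins. Its log2 signal was 14.03, 15.85 and 15.49 in control rats 1, 2 and 3. In the TBI rats, in the same order, it was 12.48, 12.08 and 11.65, and in MASM + TBI rats 1 to 4 it was 12.00, 12.43, 11.85 and 12.13. The lowest control rat was above the highest irradiated rat of both groups. The difference from control was -3.06 (SE 0.44) in TBI rats, a fall of 8.32-fold with a limma adjusted p of 0.00834, and -3.02 (SE 0.41) in MASM + TBI rats, a fall of 8.11-fold with an adjusted p of 0.00858.

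Mx1 and Mx2 encode GTPases of the dynamin type that hold up incoming viruses. Mx2 had the largest difference of the 9 genes in TBI rats. Its log2 signal was 9.58, 10.79 and 10.60 in the control rats, 7.13, 6.85 and 6.51 in the TBI rats, and 7.35, 7.57, 7.48 and 7.44 in the MASM + TBI rats. The 3 groups did not overlap, and the MASM + TBI rats lay between the other two. Mx2 fell 11.3-fold in TBI rats (log2 difference -3.50, SE 0.30, limma adjusted p 0.000984) and 7.29-fold in MASM + TBI rats (-2.87, SE 0.28, adjusted p 0.00202).

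For Mx1 the control rats gave 6.71, 8.39 and 8.09, the TBI rats 5.60, 5.42 and 5.60, and the MASM + TBI rats 5.28, 5.49, 5.40 and 5.12. No irradiated rat reached the lowest control rat, and the irradiated groups overlapped. Mx1 fell 4.57-fold in TBI rats (-2.19, SE 0.37, limma adjusted p 0.0160) and 5.31-fold in MASM + TBI rats (-2.41, SE 0.35, adjusted p 0.0112). Without control rat 3 the adjusted p values were 0.0605 and 0.0528, and with the replicate number as a block that in TBI rats was 0.0519. The size of the Mx1 and Mx2 differences depended on how the signal was computed. From the median pixel signals, with normexp background correction and an offset of 50, they were -0.995 and -2.36 in TBI rats and -1.05 and -2.03 in MASM + TBI rats, all still called.

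Oas1a encodes an oligoadenylate synthetase, an enzyme that senses double-stranded RNA and switches on RNA decay. The control rats had 14.11, 15.05 and 14.95, the TBI rats 12.64, 12.94 and 12.21, and the MASM + TBI rats 12.76, 13.00, 12.59 and 12.73. All control rats were above all irradiated rats, by more than 1 unit on the log2 scale. Oas1a fell 4.30-fold in TBI rats (-2.10, SE 0.27, limma adjusted p 0.00563) and 3.82-fold in MASM + TBI rats (-1.93, SE 0.25, adjusted p 0.00727).

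Ifit3 and Ifit2 encode related proteins that bind each other and hold back the translation of viral RNA. Ifit3 was at 7.46, 8.60 and 8.14 in the control rats, at 5.50, 6.05 and 5.46 in the TBI rats, and at 5.81, 5.79, 5.72 and 5.65 in the MASM + TBI rats. Control and irradiated rats were apart, and the 4 MASM + TBI rats fell within the range of the TBI rats. Ifit3 fell 5.27-fold in TBI rats (-2.40, SE 0.27, limma adjusted p 0.00319) and 5.01-fold in MASM + TBI rats (-2.32, SE 0.25, adjusted p 0.00324). From the median pixel signals with normexp correction the differences were -1.24 and -1.19, both called.

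Ifit2 was measured by 2 probes, which differed in their call. The brighter one gave 9.62, 10.81 and 9.80 in the control rats, 8.44, 9.06 and 8.93 in the TBI rats, and 8.82, 8.77, 8.55 and 8.45 in the MASM + TBI rats. Control rats were again above all irradiated rats. Its difference in TBI rats was -1.26 (SE 0.30), a ratio of 2.40, with a limma adjusted p of 0.0503 that missed the threshold. In MASM + TBI rats it fell 2.69-fold (-1.43, SE 0.28, adjusted p 0.0380), and this call was lost without control rat 2 or 3, TBI rat 2 or 3, or any MASM + TBI rat, with adjusted p values between 0.0511 and 0.0943. The dimmer probe had 7.43, 8.51 and 7.94 in the control rats, 5.95, 6.75 and 5.69 in the TBI rats, and 6.47, 6.54, 6.21 and 6.22 in the MASM + TBI rats. By that probe Ifit2 fell in both comparisons, by 1.83 (adjusted p 0.0188) and by 1.60 (adjusted p 0.0317) on the log2 scale.

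Irf7 encodes the transcription factor that amplifies type I interferon production. Its log2 signal was 13.32, 15.03 and 14.88 in the control rats, 12.26, 12.47 and 11.74 in the TBI rats, and 12.41, 12.44, 11.69 and 11.63 in the MASM + TBI rats. The groups did not overlap with control, but control rat 1 was much nearer to the irradiated rats than the other two. Irf7 fell 4.75-fold in TBI rats (-2.25, SE 0.46, limma adjusted p 0.0306) and 5.15-fold in MASM + TBI rats (-2.36, SE 0.43, adjusted p 0.0286). Leaving out control rat 2, control rat 3 or any TBI rat ended the first call, with adjusted p values between 0.0572 and 0.103, as did the replicate number as a block (0.0737). The second was lost without control rat 2 or 3 or MASM + TBI rat 1, 3 or 4, with adjusted p values between 0.0628 and 0.110. The difference was never smaller than 1.94 on the log2 scale in these fits.

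Stat2 encodes a subunit of the factor that binds the ISRE. Its log2 signal was 7.97, 8.21 and 8.27 in the control rats, 7.31, 7.18 and 7.15 in the TBI rats, and 7.68, 7.49, 7.76 and 7.47 in the MASM + TBI rats. Its groups were tight and did not overlap, with the MASM + TBI rats in between. Stat2 fell 1.92-fold in TBI rats (-0.94, SE 0.12, limma adjusted p 0.00456). In MASM + TBI rats it fell 1.47-fold (-0.55, SE 0.11, adjusted p 0.0364), and that call was lost without control rat 2 or 3, TBI rat 2, or MASM + TBI rat 1, 2 or 4, with adjusted p values between 0.0553 and 0.134, and with scaling to the 75th percentile (0.0675). From the median pixel signals with normexp correction Stat2 differed by -0.44 in TBI rats and by -0.33 in MASM + TBI rats, both called.

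Irf1 encodes a transcription factor that responds chiefly to interferon gamma, and it passed the adjusted test in no comparison. It had 6.54, 7.10 and 7.03 in the control rats, 6.21, 6.83 and 6.48 in the TBI rats, and 6.27, 6.34, 6.20 and 6.44 in the MASM + TBI rats. TBI rats overlapped with control rats, while every MASM + TBI rat was below every control rat. Its difference was -0.38 (SE 0.19, limma adjusted p 0.268) in TBI rats and -0.57 (SE 0.18, 95% interval -0.98 to -0.17, adjusted p 0.138) in MASM + TBI rats. The unadjusted limma p of the latter was 0.0112. Over the alternative fits the difference ran from -0.55 to -0.22 in TBI rats and from -0.75 to -0.27 in MASM + TBI rats, never called.

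**Figure D2:**
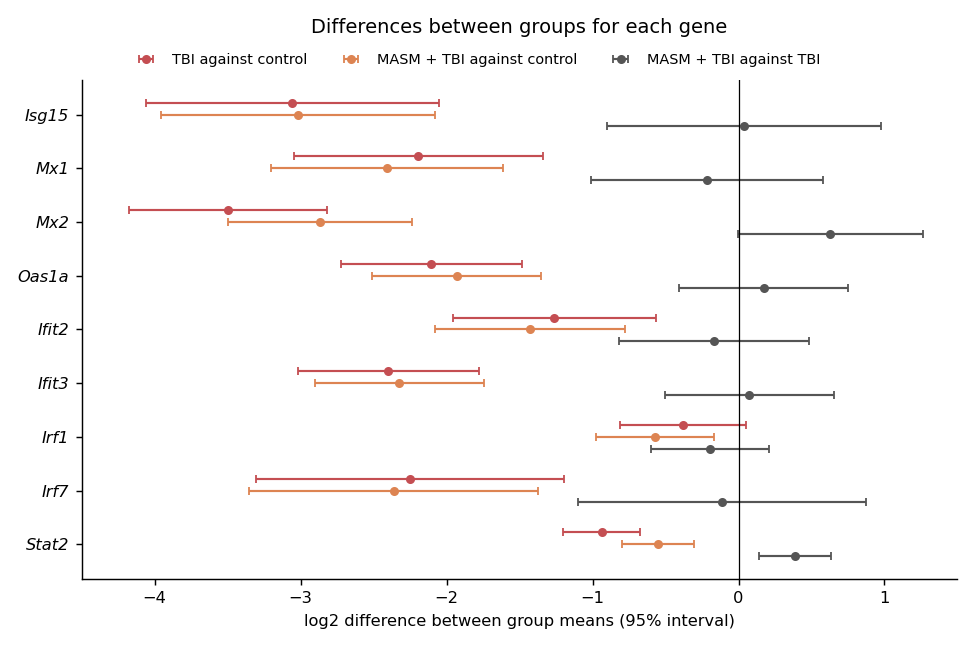
Log2 difference between group means for each of the 9 genes (the brighter probe for Ifit2) in 3 comparisons, with points for the estimate and bars for its 95% interval from limma. The differences from control lie between -3.50 and -0.38 in TBI rats, and those between the irradiated groups lie around 0, with Mx2 (0.63) and Stat2 (0.39) the highest.

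The slides bear on the comparison of MASM + TBI with control, since 1 MASM + TBI rat shared slide 1 with all control rats. On that slide the distance of MASM + TBI rat 3 from the control mean was -3.28 for Isg15, -2.33 for Mx1, -2.85 for Mx2, -2.11 for Oas1a, -1.53 for Ifit2, -2.35 for Ifit3, -2.71 for Irf7, -0.39 for Stat2 and -0.68 for Irf1. With the slide as a fixed block, where this 1 rat carries the contrast, 2 of 9 genes passed the test (Mx2 and Ifit3). The count of 8 genes for MASM + TBI against control became 5 when control rat 2 was left out and 4 when control rat 3 was left out. It also became 5 when either rat 1 or rat 4 of the MASM + TBI group was left out. Isg15, Mx2, Oas1a and Ifit3 were called in each of these 4 fits. With only the compared groups in the model, the calls of Isg15 (adjusted p 0.0569), Mx1 (0.0797) and Irf7 (0.0924) were lost in TBI rats, and those of Ifit2 (0.0612), Irf7 (0.0573) and Stat2 (0.0586) in MASM + TBI rats.

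No difference between the irradiated groups passed the test for any of the 9 genes. Of these, 4 had a negative and 5 a positive difference between MASM + TBI and TBI rats, with a median of 0.037, against 0.038 over all probes. By limma 0 of 9 were called at an adjusted p under 0.05, by which rule 1.63% of all probes were called in either direction. At an unadjusted p under 0.05 it was 1 of 9 (Stat2), against 17.0% of all probes. For 2 of 9 genes, Mx2 and Stat2, the MASM + TBI rats were all above the TBI rats, and 18.5% of all probes had no overlap in one direction or the other.

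The intervals show how large a difference could have gone unseen. For Stat2 the MASM + TBI mean was 0.39 above the TBI mean (SE 0.11, 95% interval 0.14 to 0.63, limma adjusted p 0.133). Mx2 was 0.63 above (SE 0.28, interval -0.0029 to 1.26, adjusted p 0.297). For Isg15 the difference was 0.037, with an interval from -0.90 to 0.97, so a change of up to 1.96-fold was not excluded. Oas1a differed by 0.17 (-0.41 to 0.75) and Ifit3 by 0.075 (-0.50 to 0.65). Irf7 differed by -0.11 (-1.10 to 0.87), Mx1 by -0.22 (-1.01 to 0.58), Ifit2 by -0.17 (-0.82 to 0.48) and Irf1 by -0.19 (-0.60 to 0.21).

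The 9 genes moved together from rat to rat within the control group as well. Control rat 1 was the lowest of the 3 for 9 of 9 genes, whereas it was the lowest for 26.7% of all probes. Control rat 2 was the highest for 8 of 9 genes, against 28.7% of all probes, and Stat2 was highest in control rat 3. The median distance of the genes from their control mean was -0.60 in rat 1, 0.54 in rat 2 and 0.25 in rat 3. Without control rat 1 the counts of called genes were still 7 in TBI rats and 8 in MASM + TBI rats.

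The spread between rats was larger in the control group than after irradiation. The median SD of the 9 genes was 0.64 in control, 0.33 in TBI and 0.16 in MASM + TBI rats. Over all probes well above background on all arrays it was 0.16, 0.22 and 0.15. The SD was largest in the control group for 8 of 9 genes, all but Irf1, and for 27.3% of those probes. Isg15 had the widest control group, with an SD of 0.96, followed by Irf7 with 0.94 and Mx1 with 0.90.

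Each gene was then set against the mean standardized profile of the other 8 over the 10 rats. Pearson's r was highest for Ifit3 (0.994), Oas1a (0.988) and Isg15 (0.983), and lowest for Stat2 (0.841) and Irf1 (0.796). With the group means taken out, r was 0.956 for Ifit3, 0.896 for Oas1a and 0.894 for Irf7, and it was 0.423 for Stat2. These values are descriptive, since the rats form separate groups and all genes of a rat share 1 array.

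The same measure was used to find the genes most like the 9 among 8423 other genes that were well above background on all arrays. The 5 with the highest r over 10 rats were Spats2l (0.992), Oasl (0.987), Usp18 (0.985), Phf11b (0.983) and Plk1 (0.982). With the group means taken out, r was 0.925, 0.947, 0.866, 0.888 and 0.811 in that order. Oasl and Usp18 are themselves interferon-stimulated genes. Spats2l differed from control by -1.64 in TBI rats and by -1.54 in MASM + TBI rats on the log2 scale, and Phf11b by -1.71 and -1.75. Plk1, a kinase of mitosis, differed by -2.70 and -2.60. These genes were chosen for their profile, so their differences carry no test here.

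Other genes of the pathway were grouped by role, 102 genes in all, of which 73 were measured. Of these, 16 fell in TBI rats and 19 in MASM + TBI rats, and 0 rose in either (limma, adjusted p under 0.05), where 3.19% and 1.73% of all probes fell. At an unadjusted p under 0.05 it was 27 lower and 1 higher in TBI rats, with 12.9% of all probes lower, and 43 lower and 0 higher in MASM + TBI rats, with 8.48% lower. In the comparison of the irradiated groups 0 of 73 passed the adjusted test, and 16 were lower with MASM and 0 higher unadjusted, by which rule 7.47% of all probes were lower. In the same comparison 5 of 7 Kupffer cell and macrophage markers were lower unadjusted (median -0.86, 0 called), and 1 of 9 T cell markers, Cd8b, was called lower (-2.01, adjusted p 0.0135). The T cell list had a median of -0.11 there, with 2 markers lower and 1 higher unadjusted, the latter being Cd2 (2.09, adjusted p 0.0736). Of 6 natural killer cell markers, 2 were lower and 0 higher unadjusted (median -1.07, 0 called). The part of these cell types in the values was not tested. The median over the 73 genes was -0.24 in TBI rats and -0.59 in MASM + TBI rats.

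The interferons themselves were hardly detected. Of 9 ligands 4 were measured, and Ifna4 and Ifnb1 were each well above background on 1 array, a TBI array, while Ifng and Ifnk were so on 0 arrays. None of the 4 passed the test in any comparison, at an adjusted or unadjusted p under 0.05. Of the receptors and their kinases 6 of 9 were measured and all 6 were well above background on all arrays. By limma 0 of 6 changed in TBI rats at either threshold. Against control 0 of 6 were called in MASM + TBI rats, and 4 were lower at an unadjusted p under 0.05.

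Among transcription factors outside the 9 genes, Irf9, which joins STAT2 at the ISRE, fell by 0.75 on the log2 scale in both irradiated groups (SE 0.12 and 0.11, limma adjusted p 0.0111 and 0.0113). Irf2, Irf3 and Irf5 were not called against control. They differed by -0.13, -0.18 and 0.11 in TBI rats and by -0.23, -0.29 and -0.86 in MASM + TBI rats.

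Sensors of nucleic acid and their adaptors were 0 of 9 called in TBI rats, where 3 were lower and 1 higher at an unadjusted p under 0.05. In MASM + TBI rats, where 4 were lower unadjusted, 1 of 9 fell, Dhx58, an RNA helicase related to RIG-I, by 0.92 (SE 0.18, limma adjusted p 0.0379), and its difference in TBI rats was -0.75 (adjusted p 0.0623). Of 5 brakes on the pathway 1, Usp18, was called lower in both comparisons, while at an unadjusted p under 0.05 it was 1 of 5 in TBI rats and 3 of 5 in MASM + TBI rats. Usp18 fell with log2 differences of -2.42 in TBI rats (SE 0.23, adjusted p 0.00169) and -2.25 in MASM + TBI rats (SE 0.22, adjusted p 0.00202). Usp18 removes ISG15 from proteins and damps the type I receptor. Dhx58 was named after its values were seen.

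The other effectors held most of the genes that fell: 13 of 28 measured in TBI rats and 14 of 28 in MASM + TBI rats, with medians of -0.88 and -0.93. Rsad2, the antiviral enzyme viperin, fell most, by 3.69 in TBI rats (SE 0.29, limma adjusted p 0.000697) and by 3.46 in MASM + TBI rats (SE 0.27, adjusted p 0.000796). Cmpk2, a nucleotide kinase, fell by 2.26 and 2.62. Relatives of Oas1a fell too: Oasl by 2.80 and 3.12, Oas1i by 2.62 and 2.07, and Oasl2 by 1.87 and 2.62.

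Other effectors that fell were Rtp4, a chaperone of receptors (1.89 and 1.70), Ifi44 (1.47 and 1.56), Adar, an editor of double-stranded RNA (1.35 and 1.34), Ifi44l (1.21 and 1.34) and Parp9 (1.12 and 1.48). Near-identical copies in the Oas family can share probe signal, so the values of its members are less certain than the others. Genes more typical of interferon gamma were 0 of 16 called in TBI rats, with 3 lower at an unadjusted p under 0.05, and 1 of 16 in MASM + TBI rats, with 8 lower unadjusted. That gene was Cxcl10, a chemokine for T cells, which fell by 2.59 in MASM + TBI rats (SE 0.44, limma adjusted p 0.0214), with a difference of -1.59 in TBI rats (SE 0.47, adjusted p 0.0886). The medians of this list were -0.31 and -0.67.

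**Figure D3:**
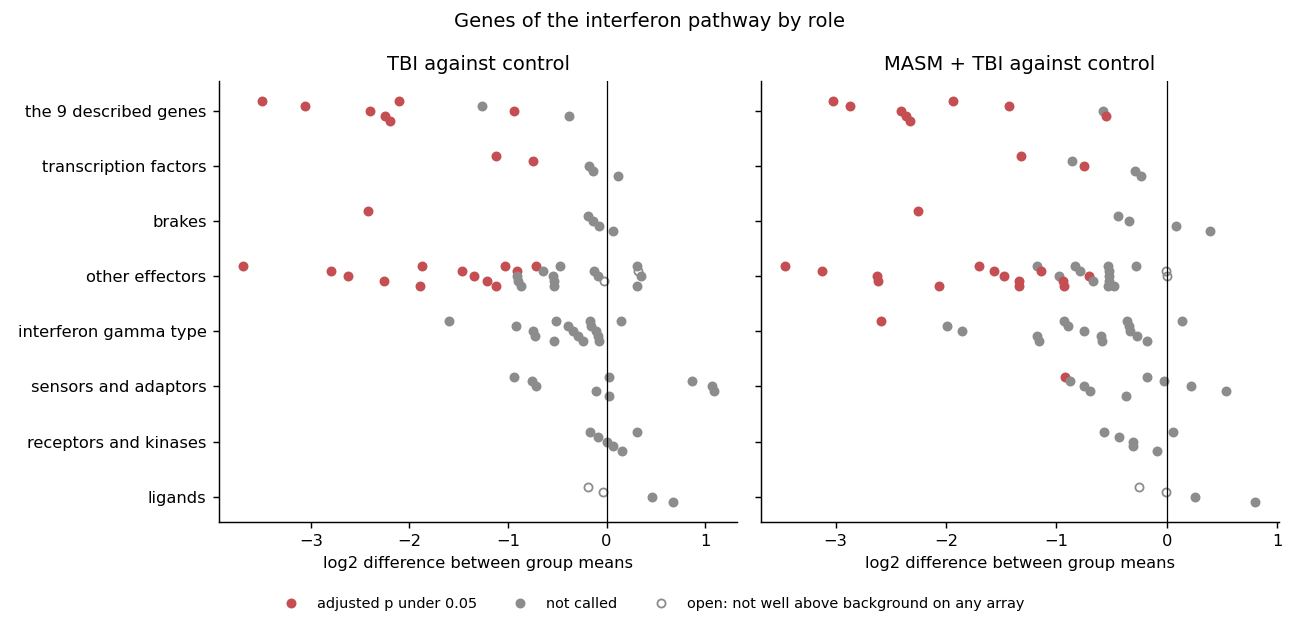
Log2 difference of each measured gene of the interferon pathway by role, for TBI against control (left) and MASM + TBI against control (right); each point is 1 gene, red where the limma adjusted p is under 0.05 and open where no array had the probe well above background. The called genes lie among the 9 described genes, the other effectors (13 and 14 of 28), the transcription factors, Usp18 and, on the right, Cxcl10 and Dhx58, and all of them are below 0.

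The letters of the ISRE core were counted over the promoters of the 9 genes and the pathway genes together. Of those that fell in TBI rats and had a window, 10 of 17 (58.8%) held the core, compared with 25 of 51 (49.0%) of the rest. For GAS it was 3 of 17 (17.6%) and 11 of 51 (21.6%). A match is a description of the letters and not a measured binding site.

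Markers of other cells of the liver were read beside these results. Of 9 T cell markers 3 fell in TBI rats (Cd3e, Cd3g and Cd2) and 2 in MASM + TBI rats (Cd3e and Cd3g), and the list's median was -0.78 and -1.23. The list was not uniform: in TBI rats Cd8b (0.78), Cd4 (0.71), Lck (0.55) and Cd5 (0.30) had positive differences, none called. At an unadjusted p under 0.05, 3 T cell markers were lower and 1 higher in TBI rats, and 5 lower and 0 higher in MASM + TBI rats. Only 3 of the 9 were well above background on all arrays, and Cd3e and Cd5 were so on none. The summed linear signal of the list ran from 677 to 911 in control rats, from 469 to 643 in TBI rats and from 300 to 490 in MASM + TBI rats. Of 4 B cell markers measured, Cd79b fell in both. Cd22, the 1 of them well above background on all arrays, differed by 0.54 in TBI rats (adjusted p 0.117) and by -0.035 in MASM + TBI rats. Unadjusted, 2 B cell markers were lower and 1 higher in TBI rats, and 1 lower and 0 higher in MASM + TBI rats, and the list's sum was 202 to 218, 171 to 295 and 137 to 181. The part of these cells in the results was not tested.

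Natural killer cell markers were 0 of 6 called in both comparisons with control. At an unadjusted p under 0.05 it was 0 of 6 in TBI rats and 4 of 6 lower in MASM + TBI rats. Their summed signal was 1099 to 2391 in control, 647 to 2068 in TBI and 408 to 901 in MASM + TBI rats, so that the last group lay below all control rats. Kupffer cell and macrophage markers (7 measured, all well above background on all arrays) summed to 47609 to 67746, 47267 to 88141 and 37616 to 46683, with 0 of 7 called against control. Unadjusted, 1 of 7 was higher and 0 lower in TBI rats and 0 of 7 passed in MASM + TBI rats, with medians of 0.46 and -0.22. The control and TBI ranges overlapped, and the MASM + TBI rats were the lowest. Against control, 0 of 8 hepatocyte markers, 0 of 6 of neutrophils and monocytes, 0 of 3 of plasmacytoid dendritic cells and 0 of 3 of sinusoidal endothelium were called. Unadjusted, 1 hepatocyte marker was lower and 2 higher in TBI rats, and 0 were lower and 4 higher in MASM + TBI rats. The unadjusted counts for neutrophils and monocytes were 0 and 1 lower, and for endothelium 2 and 1 higher. Bst2 stands both among the dendritic cell markers and among the interferon-stimulated effectors.

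**Figure D4:**
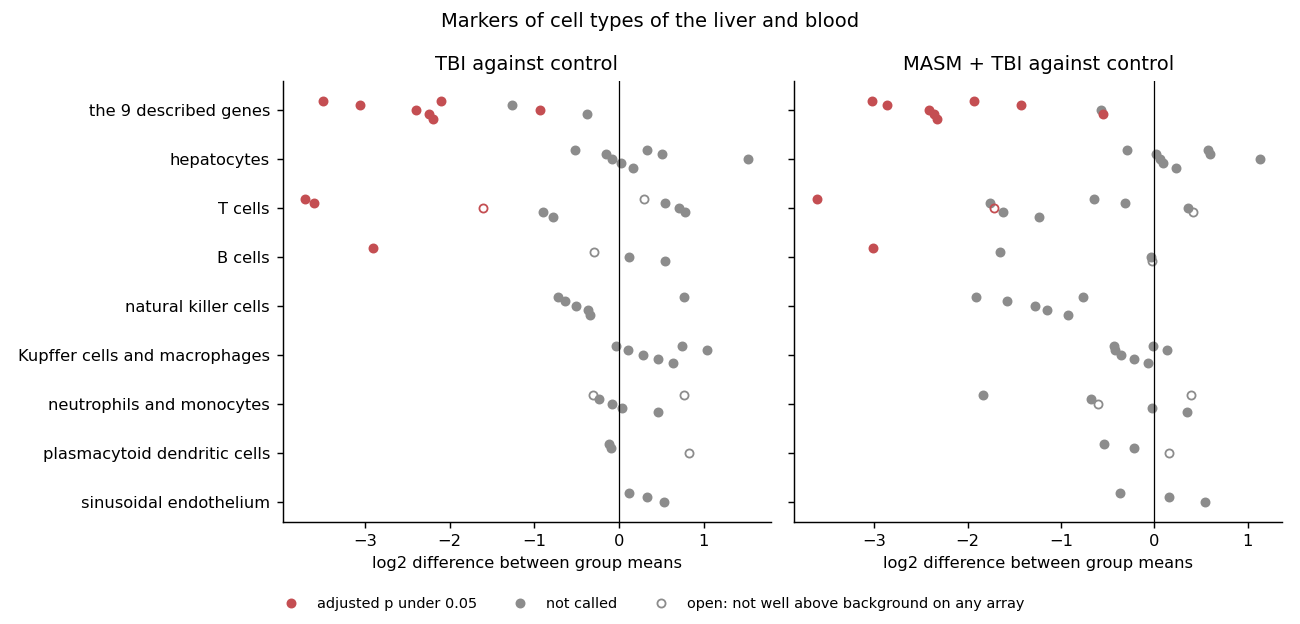
Log2 difference of each measured marker of cell types of the liver and blood, with the 9 interferon-stimulated genes in the top row, for TBI against control (left) and MASM + TBI against control (right); each point is 1 gene, red where the limma adjusted p is under 0.05 and open where no array had the probe well above background. Called markers are in the T cell and B cell rows (3 of 9 and 1 of 4 on the left), and hepatocyte and Kupffer cell markers have none.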

How the data were processed

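Liver RNA had been labelled with Cy3 and hybridised to 1 one-colour Agilent rat array per rat. The deposited values are spot intensities that the authors obtained with Feature Extraction 10.7.3.1, with background subtracted and no normalization between arrays. The groups follow the labels of the arrays. The legend of one heatmap in the study names the control and TBI arrays the other way round.

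Control spots (1639 of 45018 per array) and outlier spots (76 to 112) were left out, and 0 spots were saturated. After the log2 transform and quantile normalization, spots of one probe were averaged, which left 40945 probes with a value on every array. Symbols came from RefSeq and Ensembl accessions (16968 probes, 13438 symbols). The array grid names assembly rn4, and promoter windows were RefSeq's on GRCr8. Each gene stood on its brightest probe.

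A mean per group was fitted to all 10 arrays with limma 3.58.1 (R 4.3.3, data.table, version 1.17.8), with Benjamini-Hochberg adjustment over all 40945 probes. A call is an adjusted p under 0.05, and no p was adjusted over a list alone. SE and 95% intervals are from this fit (8.43 degrees of freedom). The precision is limited by the number of arrays, which is 3 or 4 per group. The model was tested on simulated data. The result of 1 gene of the pathway is not reported here. Plots used matplotlib 3.10.9, pandas 2.3.3 and Python 3.11.15. The labels and methods do not say whether litters or cages were shared.

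The 9 genes, the pathway and marker lists and the motifs were chosen with earlier results of these data known. Named pathway genes were the 12 called genes with the largest change, all ligands and Irf9, and the 5 genes with the most similar profile. Deviations of same-numbered rats from their group means correlated over 0.1 in all 3 pairs of control and TBI rats (0.27, 0.16 and 0.14). For the 9 genes the blocked value therefore stands beside that comparison where it changes a call. No blocked value is given for the pathway genes and the markers, so their calls are without this check. For the other group pairs r ran from -0.34 to 0.36 and the numbers were not taken to pair rats. The labels do not say that a number marks a litter or day. Alternatives changed the scaling, the background correction, the source of the values, the filter on dim probes, the prior, the test, the block and the rats, 1 at a time, except that the normexp correction (offset 50) started from median pixel signals in place of the processed signal.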

Additional observations from a re-analysis of the deposited data

Results flagged for a closer look

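In 3 of 30 groups of 4 rats checked among the described genes, 1 rat stood far from the other 3, as chance gives in about 1 of 20 groups. Only the MASM + TBI group has 4 rats, so the other groups were not checked. None of the 3 genes was among the 9. Oas1i was at 9.39 in MASM + TBI rat 2, with the nearest rat at 8.88. Cxcl10 was at 7.90 in MASM + TBI rat 4, with the nearest at 8.50. Irf9 was at 8.01 in MASM + TBI rat 4, with the nearest at 8.25. All values are log2 signals.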

How the results depend on the processing

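The 9 genes stayed below control in every fit. For TBI against control, 7 genes and 2305 probes (998 higher) were called. The numbers were 4 and 972 with only the 2 groups compared in the model. They were 0 and 10 by Welch's t-test, which allows unequal variances, after adjustment. The study names a simple t-test and does not say whether variances were pooled. At the study's threshold Welch's t-test put 7 of 9 genes lower, against 3.87% of all probes. Probes called were 7458 (1814 higher) with scaling to the 75th percentile, 6742 with the slide as a random block and 1053 with the replicate number as a block, which left 5 genes (not Mx1 and Irf7). The within-slide correlation estimated for the random slide block was negative (-0.13). Its larger counts therefore do not show that calls hold once slide is allowed for. Leaving out 1 rat gave 5 to 7 genes and 969 to 2787 probes, with 1295, 1102 and 969 probes without control rat 1, 2 and 3 and 1516 without TBI rat 2.

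For MASM + TBI against control, 8 genes and 1225 probes (516 higher) were called. The numbers were 5 genes with only the 2 groups compared, and 0 genes and 40 probes by Welch's t-test. At the study's threshold that test put 6 of 9 lower (3.27% of all probes). The replicate block, in which MASM + TBI rat 4 has no partner and drops out, gave 2 genes (Mx2 and Ifit3) and 298 probes, and the slide as a fixed block 2 genes and 526 probes (354 higher). The 75th percentile scaling gave 815 probes and the random slide block 2852. Leaving out 1 rat gave 4 to 8 genes and 490 to 1488 probes.

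For MASM + TBI against TBI, 0 genes were called in every fit, at 666 probes (373 higher) as reported. Probes were 5459 (4497 higher) with 75th percentile scaling, 263 with only these 2 groups and 4 by Welch's t-test. They were 22 with the replicate block, 2048 with the random slide block, and 250 to 1268 with 1 rat left out. The sign turned, without a call, for Ifit2 as the mean of both probes (0.029) and for Irf7 with the replicate block (0.024). With 1 rat left out it turned for Isg15 (-0.17 to 0.24), Oas1a (-0.022 to 0.34), Ifit3 (-0.031 to 0.26) and Irf7 (-0.32 to 0.043). The causes were not tested. Of the values of single genes under the alternatives, 18 lost a call and 6, all Ifit2, gained one in TBI rats, while 156 kept their side of the threshold. For MASM + TBI rats 44 lost a call and 145 did not. Genes near background, such as the ligands, are limited by signal.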
